A study of Mus musculus with 7 samples.

Results

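The 3' UTR is the stretch of an mRNA after the stop codon, where few ribosomes are found because most leave the mRNA when translation terminates. Described here are the 3' UTRs of 372 highly translated transcripts of mouse epidermis, out of 13167 transcripts measured by ribosome profiling. Ribosome profiling sequences the short mRNA fragments, or footprints, that ribosomes protect from nuclease. A transcript was included if its 3' UTR spanned at least 100 nt and its coding region held at least 1000 footprints in each of 4 libraries. The highest-count transcript was kept for a repeated gene symbol, which dropped 1 entry, and 1 transcript was left out by the selection.

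The series compared primary epidermis with a transgenic knockout of Pelota (KO) with wild type (WT) epidermis, with 2 ribosome profiling libraries of each. The allele, the cells in which it was deleted, the age of the mice and the animals behind each replicate are not given in the sources, so p-values cover only the scatter among these libraries, which may be technical. The 3 RNA-seq libraries of the series (2 KO, 1 WT) were not used here. Footprint counts therefore cannot be told apart from mRNA levels, except in ratios between regions of the same transcript.

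Pelota, encoded by Pelo, works with the GTPase Hbs1l to recognise ribosomes that have stalled with an empty or truncated mRNA channel, so that their subunits can be split. Ribosomes that are not recycled after a stop codon can stay on the mRNA and enter the 3' UTR, and Pelota with its partners is known to clear such ribosomes too. The share of footprints in 3' UTRs is thus a common readout in cells that lack recycling or rescue factors.

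Pelo had 24 and 21 footprints on its coding region in the KO libraries and 101 and 61 in the WT libraries, a log2 change of -1.65 (SE 0.25, adjusted p = 0.000845, edgeR quasi-likelihood test). Libraries held 4221675 to 5282276 coding footprints. Keratinocyte markers (6 genes) made up 7.11% and 6.60% of the coding total in the KO libraries, against 2.87% and 2.90% in WT, whereas dermal fibroblast markers (6 genes) took 3.81% and 4.35% in KO, against 8.20% and 12.3% in WT. Langerhans cell and macrophage markers (4 genes) took 0.170% and 0.197% in KO and 0.439% and 0.429% in WT. Hair shaft markers (6 genes) took 0.133% and 0.0516% in KO, against 0.00407% and 0.00542% in WT, and melanocyte markers (4 genes) 0.0285% and 0.0146%, against 0.00210% and 0.00239%. Adipocyte, skeletal muscle, T cell and endothelial markers each took at most 0.161% in any library, and all 4 shares were lower in KO than in WT except for skeletal muscle in KO replicate 2 against WT replicate 2. In such tissue libraries, fewer cells of a type and less RNA per cell cannot be told apart. All 6 keratinocyte markers and 5 of the 6 dermal fibroblast markers are themselves among the 372 transcripts. So is 1 marker each of Langerhans cells and macrophages and of skeletal muscle. These shares are therefore in part counts of the same transcripts as the results below. The part of this cell-type difference in the results on 3' UTRs was not tested.

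Very few ribosome footprints lay in these 3' UTRs. The 372 transcripts took 45.3% to 48.0% of all coding footprints per library, but their 3' UTRs together held only 3876 and 3518 footprints in KO and 3366 and 2665 in WT. The median 3' UTR held 2 footprints in each library. Of the 372, 18 had 0 in all 4 libraries, 184 had 1 to 9 over the libraries, 152 had 10 to 99 and 18 had 100 or more. Per nucleotide, the median 3' UTR carried 0.172% of the footprint density of its own coding region (mean of 4 libraries; quartiles 0.0853% and 0.401%). This relative density was at most 0.1% for 110 transcripts, between 0.1% and 1% for 233, between 1% and 10% for 26 and above 10% for 3.

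**Figure D1:**
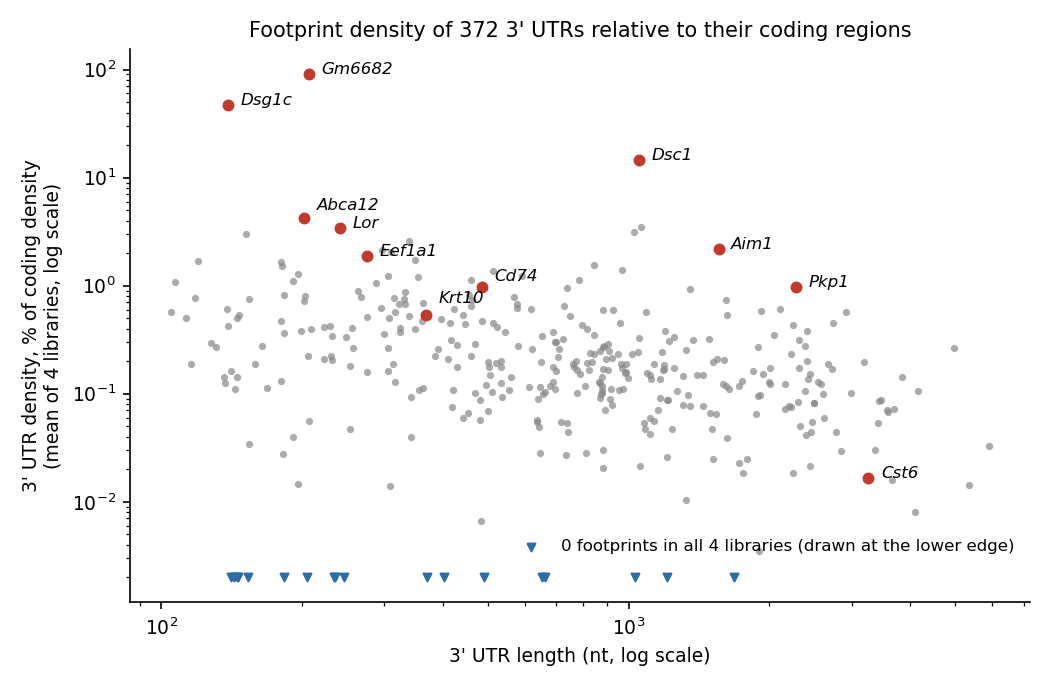
Footprint density of each of the 372 3' UTRs as a percentage of the density of its coding region (mean of 4 libraries, log scale) against 3' UTR length in nt (log scale). Most points lie between 0.01% and 1%, with Gm6682, Dsg1c and Dsc1 above 10%; triangles at the lower edge stand for the 18 with 0 footprints in all 4 libraries.

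The footprints were concentrated in few transcripts. A single one, the predicted gene Gm6682, named after its values were seen, held 22.3% of the 13425 footprints, the top 5 held 44.1%, and 8 transcripts reached 50%. Gm6682 had 627 and 624 footprints over its 207 nt 3' UTR in KO and 1019 and 721 in WT. Its 3' UTR was therefore nearly as densely covered as its coding region, at 79.3% and 84.7% of the coding density in KO and 101% and 95.6% in WT.

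The next 2 were desmosomal cadherins, which join neighbouring keratinocytes. Dsc1 (desmocollin 1) had 525 and 450 footprints over a 1054 nt 3' UTR in KO and 270 and 177 in WT, or 5.52 and 6.01 per 100 coding footprints in KO, compared with 6.47 and 7.08 in WT. Dsg1c, a desmoglein 1 gene, had 190 and 147 over 139 nt in KO and 205 and 112 in WT, or 2.22 and 2.17 per 100 coding footprints in KO, compared with 2.70 and 2.67 in WT. For these 3 transcripts the KO ratios lay below both WT ratios, yet none passed the test described below, with adjusted p = 0.51 for Gm6682, 0.502 for Dsc1 and 0.627 for Dsg1c (edgeR). The fitted changes of these 3 were positive with TMM scaling, and negative (log2 change -0.26, -0.23 and -0.29, in that order) with library totals. The table holds 1 transcript per gene as a rule, so footprints that another transcript of the gene, or a similar gene, contributes to these nucleotides would be counted in the 3' UTR, and that contribution was not tested.

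Below them, relative densities were 4.18% or less. Loricrin (Lor), the main protein of the cornified envelope, had 137 and 180 footprints in its 3' UTR in KO and 88 and 46 in WT, a relative density of 3.44%. Abca12, which loads lipid into lamellar granules, reached 4.18% from 13 footprints in all. Dst (dystonin, which links keratin filaments to hemidesmosomes) reached 3.51% from 14 footprints. Son, a splicing cofactor, reached 3.13% from 46, the desmosomal plaque gene Pkp3 2.57% from 21 and Aim1 2.17% from 45. Densities such as those of Abca12 and Dst rest on few footprints and on low coding density over long coding regions.

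At the other end, Tuba1b (alpha-tubulin), Ddb1 (an adaptor of a cullin ubiquitin ligase), Aebp1, Krt42 and the histone H2B genes Hist1h2bp and Hist1h2bq had 0 footprints in all 4 libraries. Hist1h2bq has a 1683 nt 3' UTR in the table and 16965 coding footprints in all. Over the 18 transcripts with 0, a count of 0 allows up to 0.0109 to 0.0593 footprints per 100 coding footprints (3 counts over the 4 libraries; such limits and the intervals below cover counting error only). H2B genes, tubulins, actins, keratins and MHC genes have near-identical copies, and the sources used here do not say how reads shared between copies were counted.

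Across the 372, more heavily translated transcripts had more 3' UTR footprints (Spearman rho 0.41 between summed counts, n = 372), whereas the count was almost unrelated to 3' UTR length (rho 0.097). Relative to coding footprints, the count rose weakly with 3' UTR length (rho 0.26). These are descriptions across transcripts, which share libraries and depth. The ratio of 3' UTR to coding footprints was ordered similarly in replicates (rho 0.61 between the KO libraries, 0.65 between the WT libraries) and somewhat less so between genotypes (0.50 to 0.57). For 3' UTRs with at least 10 footprints in a replicate pair, the ratio differed between replicates with a mean chi-square of 1.49 in KO (99 transcripts) and 1.96 in WT (79 transcripts), where counting noise alone gives about 1.

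In KO the 3' UTRs of these transcripts took a somewhat larger share of footprints than in WT. Summed over the 372, there were 0.169 and 0.167 3' UTR footprints per 100 coding footprints in KO (95% exact Poisson intervals 0.164 to 0.174 and 0.162 to 0.173) and 0.141 and 0.132 in WT (0.136 to 0.146 and 0.127 to 0.137). The KO mean of 0.168 ± 0.00128 (SD, n = 2) was 1.23 times the WT mean of 0.136 ± 0.00654 (SD, n = 2), and the libraries did not overlap. The exact two-sided permutation p was 0.333, the smallest that 2 against 2 libraries allow, as it is for every difference below in which the libraries of the genotypes did not overlap.

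The median transcript showed a similar difference. Its relative density was 0.160% and 0.157% in KO and 0.113% and 0.122% in WT, 1.35-fold higher in KO (exact permutation p = 0.333). Transcripts with 0 footprints numbered 73 and 86 in KO and 95 and 110 in WT. Without the 3 transcripts above 10% relative density, the summed ratio was 0.112 and 0.110 in KO and 0.0789 and 0.0821 in WT, 1.38-fold. The unweighted mean ratio over transcripts, which Gm6682, Dsc1 and Dsg1c dominate, went the other way, with 0.196 ± 0.00777 per 100 in KO and 0.207 ± 0.0121 in WT (SD, n = 2, exact permutation p = 0.667).

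The summed difference was smaller among transcripts whose coding footprints changed alike. Coding footprints were called higher in KO for 142 of the 372 and lower for 67 (edgeR, adjusted p under 0.05), beside 19.8% higher and 19% lower of all 10821 transcripts tested. With library totals in place of TMM scaling the counts were 98 and 101, beside 13.6% and 27.3% of all transcripts. Within the 142, 67 and 163 transcripts called higher, lower or neither, the summed ratio without the 3 above 10% was 1.21-fold, 1.09-fold and 1.15-fold higher in KO. Each of these is smaller than the 1.38-fold difference of the sum. Coding counts both chose these classes and stand in the denominator of the ratio, so the smaller folds are a description only. Median relative density did not follow this in every class. It was 1.61-fold, 1.21-fold and 1.28-fold higher in KO, in the same order, beside 1.35-fold over the 372. This split and those by coding level and 3' UTR length below were chosen after the table had been opened.

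The direction was opposite in less translated transcripts. Among 9940 other transcripts with a 3' UTR of at least 100 nt, the summed ratio was 0.478 and 0.572 per 100 in KO and 0.714 and 0.785 in WT, 0.70-fold. The ratio of the highly translated group to these others, without transcripts above 10%, was 0.302 and 0.245 in KO and 0.136 and 0.132 in WT (exact permutation p = 0.333). By coding level, the KO to WT fold was 0.83 for the 1279 transcripts with 300 to under 1000 footprints in the lowest library, 0.67 for the 2830 with 100 to under 300 and 0.64 for the 5658 under 100. The level of the ratio also rose as coding counts fell, but coding counts both chose these classes and stand in the denominator, so that order is no finding.

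**Figure D2:**
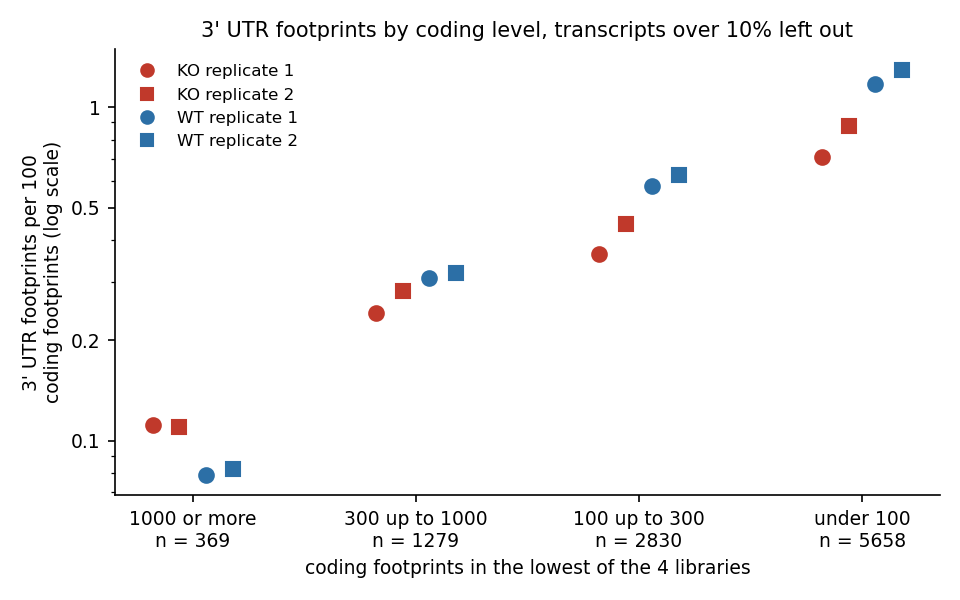
Summed 3' UTR footprints per 100 coding footprints (log scale) in each library, for transcripts grouped by coding footprints in their lowest library and without those above 10% relative density. The KO libraries lie above the WT libraries at 1000 or more and below them in the other 3 classes.

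Transcripts just inside and just outside the limits of the selection had few 3' UTR footprints. Gnas, Lce1c and Kif5b entered with lowest coding counts of 1000, 1002 and 1003 and had 9, 23 and 7 footprints in their 3' UTRs over the 4 libraries, while Stt3a, Cast and Bsg stayed out at 995, 997 and 998 with 1, 15 and 2. By length, Lamb2, Sdr16c6 and Rpl4 entered at 105, 107 and 113 nt with 1, 7 and 6 footprints, and Hist1h4h and Tuba1c stayed out at 90 and 91 nt with 0 and 4.

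The KO to WT difference varied with length when the 372 were cut into 4 equal classes. In the shortest class (105 to 342 nt, 91 transcripts at most 10%), the summed ratio was 0.130 and 0.132 per 100 in KO and 0.0599 and 0.0639 in WT, 2.12-fold higher in KO. In the longest class (1326 to 5896 nt, 93 transcripts) it was 0.134 and 0.155 in KO and 0.165 and 0.178 in WT, 0.84-fold. The 2 classes between differed less, with 0.115 and 0.107 against 0.0929 and 0.108 at 343 to 740 nt, where the genotypes overlapped, and 0.0749 and 0.0667 against 0.0555 and 0.0540 at 750 to 1323 nt. These sums leave out Gm6682, Dsg1c and Dsc1, on which their order depended: with all 372, the summed fold was 1.23 in the shortest class, 1.10 and 1.84 in the next 2 and 0.84 in the longest.

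The medians, which include all transcripts, differed most in the shortest class. Median relative density in the shortest class (93 transcripts) was 0.347% in both KO libraries and 0.168% and 0.157% in WT, and in the longest class it was 0.0909% and 0.103% in KO and 0.0950% and 0.0880% in WT. The shortest class thus exceeded the longest 3.82 and 3.35 times in KO and 1.77 and 1.78 times in WT (exact permutation p = 0.333). Split by coding call, the fold of that median in the shortest class was 1.92 for the 40 transcripts called higher in KO, 0.85 for the 21 called lower, whose libraries overlapped, and 4.41 for the 32 called neither, whose median was 0 in WT replicate 2. The summed fold over the 91 transcripts at most 10% was 1.36, 1.23 and 1.8 in these classes. Here too coding counts both chose the classes and stand in the denominator. In the other transcripts of 100 to 342 nt the ratio was 0.24 and 0.253 in KO and 0.187 and 0.227 in WT, and from 1326 nt it was 0.516 and 0.665 in KO and 0.930 and 0.985 in WT.

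**Figure D3:**
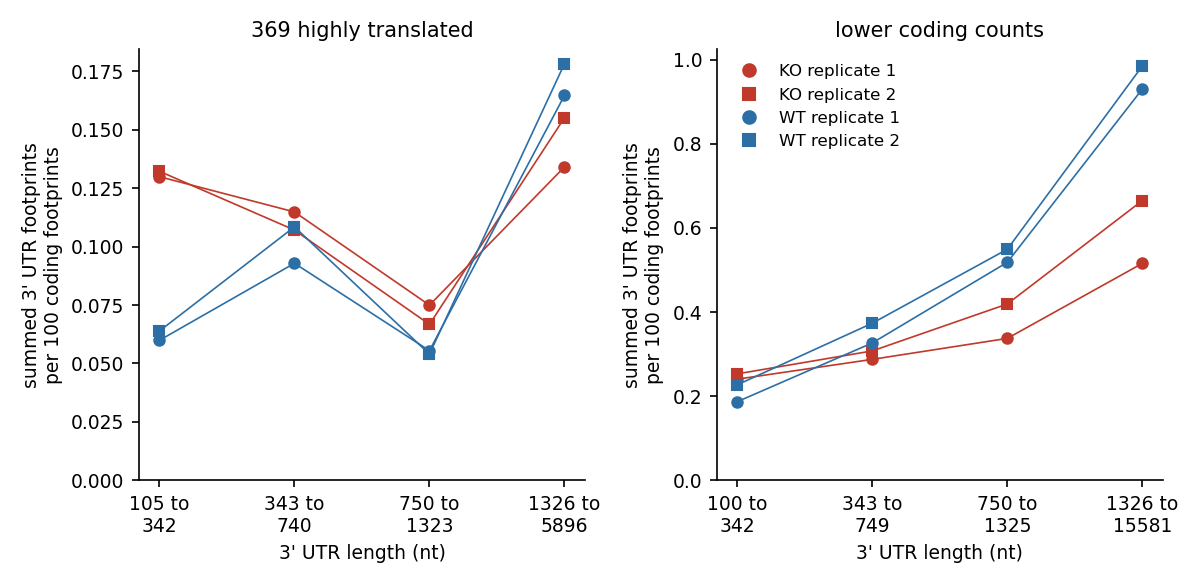
Summed 3' UTR footprints per 100 coding footprints in each library by 3' UTR length class (nt), for the 369 highly translated transcripts at most 10% relative density (left) and for transcripts with lower coding counts (right); the 2 vertical scales differ. KO lies above WT in the shortest class of both panels and below it in the longest.

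Footprints before the start codon behaved in the same direction as the sum over 3' UTRs. In the 362 transcripts with a 5' UTR value there were 0.697 and 0.772 5' UTR footprints per 100 coding footprints in KO, whereas WT had 0.443 and 0.362, 1.82-fold higher in KO (exact permutation p = 0.333). Median 5' UTR density was 3.66% and 5.19% of coding density in KO and 2.71% and 2.30% in WT, far above the 3' UTR values.

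Individual transcripts called for a higher 3' UTR share in KO included 4 keratins, 4 dermal matrix genes, loricrin and Eef1a1. Of the 372, 61 had at least 10 footprints in at least 2 libraries in each region and could be tested for a different 3' UTR to coding ratio (edgeR quasi-likelihood test of the interaction of genotype and region, TMM scaling within each region). Of these 61, 15 were called higher in KO and 0 lower at an adjusted p under 0.05. Over all 223 transcripts tested, 7.17% were called higher and 3.59% lower. At an unadjusted p under 0.05, 25 of the 61 were higher and 4 lower, beside 19.7% and 17.9% of the 223. Of the 61, 16 reached 10 footprints in KO libraries only and 9 in WT libraries only. Such transcripts could hardly have passed the filter without differing, and 6 of the 15 called are among them (Krt6a, Krt17, Cst6, Psapl1, Apoe and Fabp5). The other 9 of the 15 reached 10 footprints in both genotypes.

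These calls depended on scaling. With library totals of coding footprints, none of the 61 was called in either direction, and DESeq2 called 1 higher. With library totals the unadjusted edgeR p was under 0.05 for 14 higher, beside 8.07% of the 223. It was under 0.05 for 4 lower, for which the share of the 223 was not counted. The median log2 change of the 61 was 0.93 beside 0.13 over all 223, and 0.42 beside -0.37 with library totals. TMM scaling within each region thus put log2 changes about 0.50 above those with library totals. The log2 changes printed with TMM scaling therefore lie above the change that the printed ratios alone give. All 15 changes stayed positive under every alternative that gave a value, and for all 15 both KO ratios lay above both WT ratios. Without KO replicate 1, 9 of the 15 could be tested and none was called. Without KO replicate 2, WT replicate 1 or WT replicate 2, 6, 5 and 1 of the 15 were called.

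**Figure D4:**
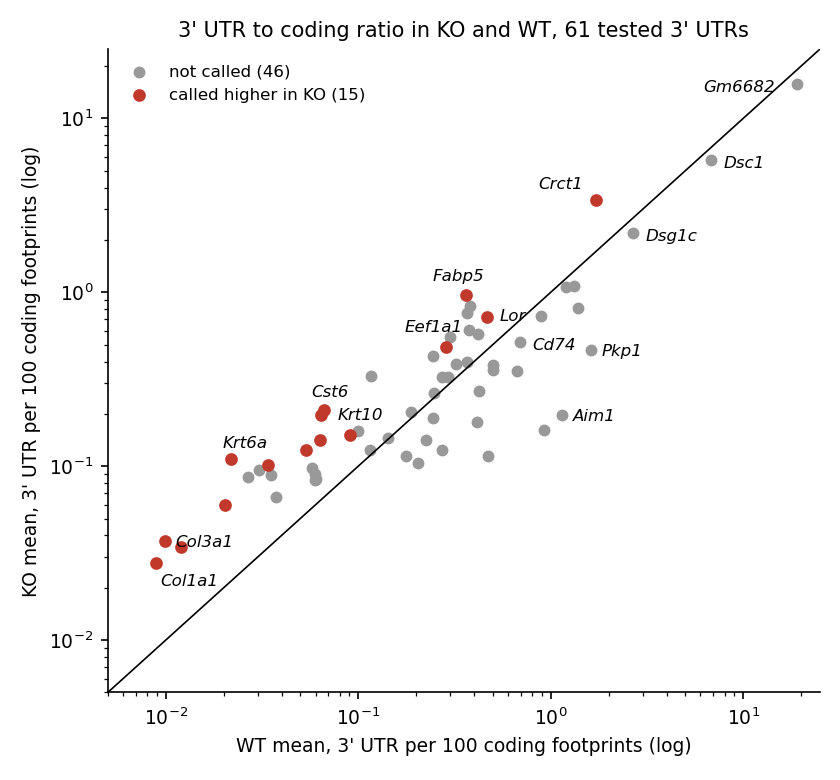
Mean 3' UTR footprints per 100 coding footprints in KO against WT (both log scales) for the 61 tested 3' UTRs; the diagonal marks equal ratios. The 15 called higher in KO (red) lie above the diagonal and run from Col1a1 at 0.0089 per 100 in WT to Crct1 at 1.73.

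Over all transcripts with any 3' UTR footprint, both KO ratios lay above both WT ratios for 102 of the 354 highly translated ones, or 28.8%, and below them for 54, or 15.3%. The shares over all 7643 such transcripts were 9.89% above and 20.2% below. Sparse counts tie at 0 more often, so these shares also vary with depth.

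Keratins form the intermediate filaments of keratinocytes, with Krt5 and Krt14 in the basal layer and Krt1 and Krt10 in the layers above. Of 12 keratins in the group, 8 were tested and 4 were called higher (Krt6a, Krt17, Krt5, Krt10). Called higher were 7.17% of all 223 transcripts tested and 24.6% of the 61 highly translated ones. Both KO ratios lay above both WT ratios for 8 of the 12 and below for 1. The shares were 9.89% and 20.2% of all transcripts with any 3' UTR footprint, and 28.8% and 15.3% of the highly translated ones. Summed, the list had 0.112 and 0.0931 3' UTR footprints per 100 coding footprints in KO, compared with 0.0512 and 0.0634 in WT. Of the 8 tested, 5 reached 10 footprints in KO libraries only, so the filter favoured those higher in KO, and the counts of called keratins support nothing on their own.

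Krt10 had 137 and 109 3' UTR footprints in KO and 38 and 40 in WT, while its coding region had 85300 and 76577 in KO, against 51352 and 37081 in WT. Both regions were higher in KO, the 3' UTR more so, and the ratio was 0.161 and 0.142 per 100 against 0.0740 and 0.108 (log2 change 1.27, SE 0.32, edgeR adjusted p = 0.0336). Krt5 had 92 and 48 against 20 and 21, or 0.168 and 0.113 per 100 against 0.0573 and 0.0691 (log2 change 1.67, edgeR adjusted p = 0.0304).

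The stress-induced keratins Krt6a and Krt17 had the fewest WT footprints of the 4 called keratins, and both reached 10 footprints in KO libraries only. Krt6a had 29 and 37 3' UTR footprints in KO and 2 and 1 in WT, or 0.0966 and 0.125 per 100 against 0.0288 and 0.0147, a log2 change of 2.84 (SE 0.69, edgeR adjusted p = 0.0305). Krt17 had 41 and 50 in KO and 7 and 3 in WT, or 0.0983 and 0.106 per 100 against 0.0455 and 0.0222. Krt1, by contrast, had 123 and 62 in KO and 7 and 10 in WT, yet its coding footprints moved almost as far, and its ratios of 0.105 and 0.0638 overlapped with 0.0473 and 0.0729 (edgeR adjusted p = 0.149). Krt1, Krt5, Krt10 and Krt14 are themselves among the 6 keratinocyte markers. The higher marker share in KO given above is thus largely their own coding counts and no separate observation. The part of cell types in the ratios was not tested.

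**Figure D5:**
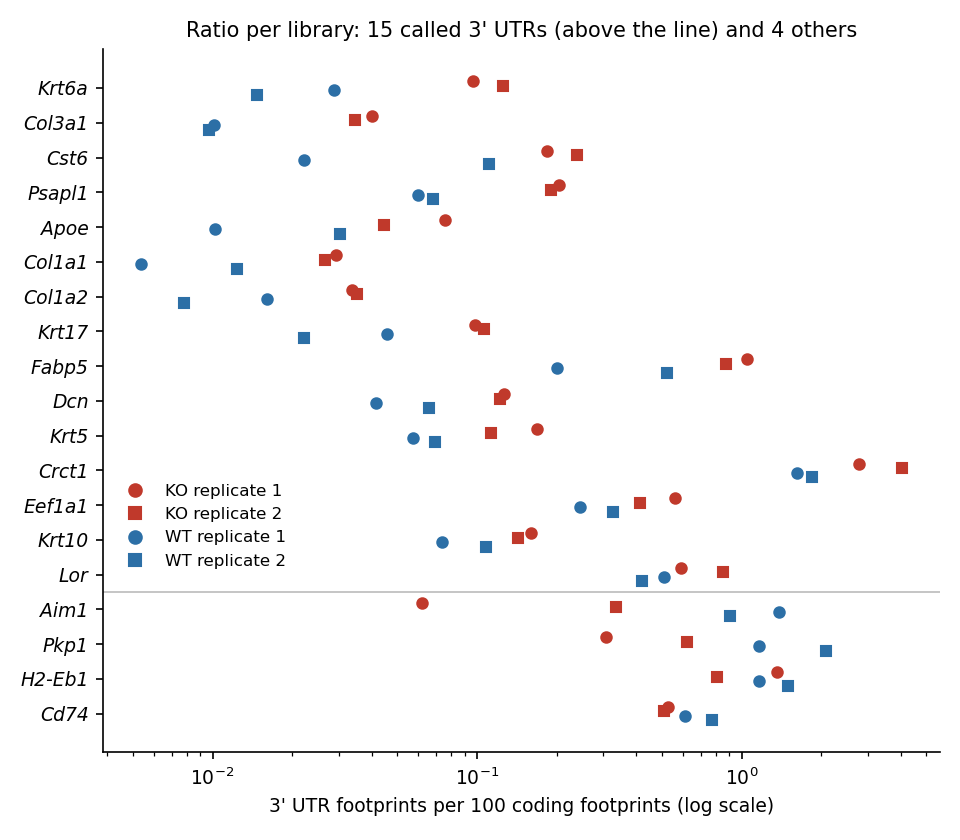
3' UTR footprints per 100 coding footprints (log scale) in each library for the 15 transcripts called higher in KO, ordered by log2 change, and for 4 that were not called (below the line). In each of the 15, both KO libraries lie to the right of both WT libraries, whereas Aim1, Pkp1 and Cd74 have both to the left.

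The cornified layer is the dead outer sheet of the epidermis. Of its 14 genes in the group, 6 were tested and 1, Lor, was called higher. The shares called higher were 7.17% of all 223 transcripts tested and 24.6% of the 61. Lor had 0.588 and 0.852 3' UTR footprints per 100 coding footprints in KO, compared with 0.507 and 0.422 in WT (log2 change 1.11, SE 0.32, edgeR adjusted p = 0.0465). Summed, the 14 had 0.140 and 0.181 per 100 in KO and 0.116 and 0.134 in WT. Krtdap, a small secreted keratinocyte protein, had 57 and 50 footprints in KO, and 24 and 43 in WT libraries, and its ratios overlapped.

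Of the called transcripts, Cst6, Crct1, Psapl1 and Apoe were on none of the lists. Cst6, a cysteine protease inhibitor of the cornified layer, had 41 and 54 footprints over a 3256 nt 3' UTR in KO and 2 and 7 in WT, or 0.183 and 0.239 per 100 against 0.0221 and 0.110 (log2 change 2.33, edgeR adjusted p = 0.0359), and reached 10 in KO only. Its relative density was still the lowest of the 15, at 0.0166%. Crct1, a small gene of the epidermal differentiation complex, had the highest ratio of the 15, with 2.78 and 4.03 per 100 in KO and 1.61 and 1.84 in WT. Psapl1, which reached 10 in KO only, had 17 and 15 footprints against 5 and 4 (edgeR adjusted p = 0.0372).

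Dermal matrix proteins are made by fibroblasts. Their coding footprints fell in KO for 10 of 22 genes and rose for 2, beside 19% and 19.8% of all transcripts, and with library totals for 12 and 2, beside 27.3% and 13.6%. Of the 5 tested for the ratio, all with 10 footprints in both genotypes, Col1a1, Col3a1, Col1a2 and Dcn were called for a higher 3' UTR share in KO. Called higher were 7.17% of all 223 transcripts tested and 24.6% of the 61 highly translated ones. The other tested gene, Postn, went the other way, with 0.0968 and 0.133 per 100 in KO and 0.579 and 0.367 in WT. Its log2 change of -1.55 was not called (edgeR adjusted p = 0.0652, and 0.0576 with library totals). Coding footprints of Postn were called higher in KO. Summed, the 22 had 0.0460 and 0.0419 3' UTR footprints per 100 coding footprints in KO, compared with 0.0187 and 0.0185 in WT. Both KO ratios lay above WT for 9 of the 22 and below for 4. The shares were 9.89% and 20.2% of all transcripts with any 3' UTR footprint, and 28.8% and 15.3% of the highly translated ones. The median log2 change of the 5 was 2.09, beside 0.13 over all 223, and none was called with library totals.

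For the 4 called, coding footprints were called lower in KO, while 3' UTR counts overlapped between genotypes in all but Col3a1, where they were higher in KO. Col1a1, a chain of type I collagen, had 20 and 20 3' UTR footprints in KO and 10 and 29 in WT, while its coding region had 68499 and 75428 in KO, against 185880 and 233336 in WT. Its ratio was 0.0292 and 0.0265 per 100 in KO and 0.00538 and 0.0124 in WT (log2 change 2.13, SE 0.44, edgeR adjusted p = 0.0297). Col3a1, the chain of type III collagen, had 25 and 21 in the 3' UTR in KO and 11 in each WT library, or 0.0400 and 0.0345 per 100 against 0.0101 and 0.00967. Its adjusted p of 0.00955 was the lowest of the 15 (log2 change 2.42, SE 0.40, edgeR), and 0.0576 with library totals. These 4 genes are themselves among the 6 dermal fibroblast markers. The lower marker share in KO is thus largely their own coding counts and no separate observation. The part of cell types in the ratios was not tested.

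In lipid metabolism, Fabp5, the epidermal fatty acid-binding protein, had 50 and 37 3' UTR footprints in KO and 4 and 8 in WT, or 1.05 and 0.873 per 100 against 0.2 and 0.522 (log2 change 2.00, edgeR adjusted p = 0.0372), and reached 10 in KO only. It was the 1 called among 3 tested of the 9 genes of the lipid list, beside 7.17% of all 223 tested and 24.6% of the 61. The list had 0.320 and 0.337 per 100 in KO and 0.169 and 0.125 in WT. Scd1, a fatty acid desaturase, had 6 and 10 footprints in KO and 41 and 19 in WT, but its coding footprints were lower in KO too and its ratios overlapped. Apoe, the lipid carrier apolipoprotein E, had 22 and 15 against 4 and 9 with coding footprints that did not pass the test (log2 change of the ratio 2.14, edgeR adjusted p = 0.0372), and reached 10 in KO only.

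Among translation factors, Eef1a1, which delivers aminoacyl-tRNA to the ribosome, had 190 and 133 3' UTR footprints in KO and 42 and 44 in WT, or 0.559 and 0.412 per 100 against 0.246 and 0.327 (log2 change 1.27, SE 0.34, edgeR adjusted p = 0.0372). It was the 1 gene tested of the 7 on the list. All 7 had coding footprints called higher in KO, beside 19.8% of all transcripts tested and 38.2% of the highly translated ones. With library totals 6 of the 7 were called higher, beside 13.6% of all transcripts. Eef2, the translocation factor, went the other way in its ratio, with 0.0532 and 0.0780 per 100 in KO and 0.122 and 0.152 in WT, from 6 to 9 footprints a library, too few for the test.

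Chaperones and secretory folding factors were too sparse to test one by one. Summed, the 16 had 41 and 47 3' UTR footprints in KO and 15 in each WT library, or 0.0632 and 0.0762 per 100 against 0.0213 and 0.0283 (2.81-fold, exact permutation p = 0.333). Both KO ratios lay above both WT ratios for 7 of the 16 and below for 0, beside 9.89% and 20.2% of all transcripts with any 3' UTR footprint and 28.8% and 15.3% of the highly translated ones. Hspb1, a small heat shock protein, had 8 and 7 footprints against 2 and 1, and Pdia3, a protein disulfide isomerase, 6 and 8 against 2 and 0. The 4 glycolysis genes had 6 and 10 footprints in KO, and 2 and 1 in WT libraries, and none was tested.

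Actins and tubulins (25 genes of the cytoskeleton list) had 0.0365 and 0.0377 per 100 in KO and 0.0219 and 0.0284 in WT, with none of the 3 tested called. Actb had 30 and 24 3' UTR footprints in KO and 14 and 19 in WT (edgeR adjusted p = 0.087), and Actg1 had 17 and 15 against 14 and 5.

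Junction proteins were mixed. Of 22 genes, 6 were tested and none was called, with both KO ratios above WT for 4 and below for 6. The shares were 9.89% and 20.2% of all transcripts with any 3' UTR footprint, and 28.8% and 15.3% of the highly translated ones. Pkp1 (plakophilin 1, a desmosomal plaque protein) had 20 and 40 footprints over a 2282 nt 3' UTR in KO and 72 and 80 in WT, or 0.307 and 0.623 per 100 against 1.16 and 2.08, although its coding footprints were higher in KO. Its log2 change of -1.28 missed the threshold (SE 0.44, edgeR adjusted p = 0.0724), and passed it without KO replicate 2 (0.0237) or WT replicate 1 (0.00166). Outside this list, Aim1 had 1 and 4 footprints in KO and 27 and 13 in WT, a log2 change of -2.19 (edgeR adjusted p = 0.063, and 0.0134 without KO replicate 2). Dst and Pkp3, which are on the list, also had both KO ratios below WT, with too few footprints for the test.

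MHC molecules present antigen, and the invariant chain Cd74 assists those of class II. The list of these genes was added after values were seen. Its 10 genes had 0.354 and 0.312 3' UTR footprints per 100 coding footprints in KO, compared with 0.460 and 0.618 in WT. None of 7 tested was called, and their median log2 change was 0.05 with TMM scaling. With library totals the log2 change was -0.41 for Cd74, -0.30 for H2-Eb1 and 0.24 for H2-K1. Cd74 had 37 and 39 footprints in KO and 127 and 124 in WT, or 0.528 and 0.507 per 100 against 0.609 and 0.776, and its coding footprints fell about as far. H2-Eb1, an MHC class II chain, had 36 and 23 in KO and 81 and 89 in WT, and its ratios overlapped. Cd74 is itself 1 of the 4 Langerhans cell and macrophage markers and holds most of their share. The lower share in KO is thus largely its own coding count and no separate observation. The part of cell types in the ratios was not tested.

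Several of the gene lists had no transcript in the group. Of the lists of selenoproteins, of genes with reported stop codon readthrough, of genes with programmed frameshifting, of rescue partners of Pelota and of immediate early genes, 0 members reached 1000 coding footprints in each library with a 3' UTR of at least 100 nt. Transcripts with values in all 4 libraries numbered 19, 7, 2, 17 and 32 for the 37, 12, 5, 18 and 33 symbols of these lists, in that order. Symbols without such values, some of them alternative names, were not compared with the limit.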

How the data were processed

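The authors deposited raw footprint counts per transcript in the 5' UTR, coding region and 3' UTR, with region lengths in nt, per the file headers, on mm9 annotation. A table described as 28 to 34 nt footprints and another described as 20 to 22 nt are byte-identical, so the length class is unknown. Transcripts with values for all regions have 71 nt outside them, and footprints there are in no region's count. Tools listed, with no role, in the submitters' processing notes are TopHat2 2.0.10, Bowtie2 2.2.6 and CASAVA 1.8, beside builds mm9 and hg19. The sources used here do not say how footprints were placed, and placement can move counts across the stop codon, which weighs most on short 3' UTRs. The 20 deposited per-sample columns of densities and ratios were not used.

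Relative density is 3' UTR footprints per nt over coding footprints per nt. Counts were tested with edgeR 4.0.16 (R 4.3.3) with Benjamini-Hochberg adjustment over all transcripts tested, threshold 0.05, and DESeq2 1.42.0 was an alternative. The ratio was tested as a genotype by region interaction in a model with a term for each library. Summed values were compared by exact permutation over libraries (scipy 1.17.1). Both models were tested on simulated data. Other alternatives were scaling, count filters, selection limits, a replicate block and leaving out each replicate.

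The group and the gene lists were chosen with earlier results of these data known. Named were the 10 members with most 3' UTR footprints, the 8 highest and 6 lowest in relative density, up to 6 called with the largest rise or fall, and 2 of each list with most footprints, without predicted genes. Members named outside this rule were chosen after their values were seen.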

Additional observations from a re-analysis of the deposited data

How the results depend on the processing

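Differences between KO and WT sums had the same sign under every alternative run except 1. The difference in 3' UTR footprints per 100 coding footprints, 0.0319, was 0.0272 to 0.0365 without each replicate, and was reversed, at -0.0104, as an unweighted mean over transcripts. The difference in median relative density, 0.0414 percentage points, was 0.0368 to 0.0460 without each replicate. The calls of single 3' UTRs were less stable. In place of 15 called higher, library totals gave 0, coding TMM factors for both regions 0, DESeq2 1 and no count filter 1 (with 1 lower), and leaving out each replicate gave 0 to 6 higher and 0 to 2 lower. Alternatives added after seeing the data gave 7 with adjusted quasi-likelihood deviances, 0 with these and library totals, and, with library totals and without each replicate, 0 to 5 higher and 0 to 2 lower. A filter on a sum of 20 footprints gave 16, and all 15 were among them. Libraries with the same replicate number showed no shared deviation (correlation -0.0066 for coding counts and -0.061 for ratios). This cannot show whether they were prepared together. The replicate block gave 8 of 15. For coding footprints, library totals moved the 67 lower to 101. The cause was not tested. Depth limits single 3' UTRs: 311 of 372 had too few footprints to test. The planned comparison of coding lengths with RefSeq proteins was not run.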
